A study of Homo sapiens with 12 samples.

Results

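Oxidative phosphorylation in mitochondria runs on 5 protein complexes whose subunits are encoded mostly in the nucleus. The genes described here are the nuclear-encoded subunits of these complexes, chosen by symbol alone: NDUF genes of the A, AB, B, C, S and V series, SDHA to SDHD, UQCR genes, COX4 to COX8 genes and ATP5 genes, without antisense names and pseudogenes (6 pseudogene symbols were left out). They came to 55 of the 18329 genes that occur in any of the deposited tables. RefSeq lists 88 protein-coding genes under these patterns, and the other 33 were not listed in the files used here. Complex I (NADH dehydrogenase) supplied 25 of 37 genes and complex II (succinate dehydrogenase) 2 of 4. Complex III (cytochrome bc1) supplied 7 of 9, complex IV (cytochrome c oxidase) 9 of 18 with NDUFA4 counted there, and complex V (ATP synthase) 12 of 20. The ATP5 pattern also takes in ATP5IF1, which encodes an inhibitor of ATP synthase and is counted with the subunits of complex V below. SDHA and SDHB of complex II, ATP5F1A and ATP5F1B of complex V and the core proteins UQCRC1 and UQCRC2 of complex III were among the genes not listed.

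Complexes I and II pass electrons from NADH and succinate to coenzyme Q, complex III passes them on to cytochrome c, and complex IV hands them to oxygen. The proton gradient built on the way drives ATP synthase. N6-methyladenosine (m6A) is a methyl mark on adenosines of messenger RNA, found most often near the stop codon and in the 3′ UTR within a short consensus called DRACH, and FTO is an enzyme that removes it. FTO also acts on m6Am, a related methylated adenosine beside the cap at the start of many transcripts, which m6A antibodies bind as well.

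The FTO knockdown group and the control group were both HGC27 cells, an established human gastric carcinoma line, with no further treatment given in the labels. The labels name the knockdown libraries sh1 to sh3 and the controls Con1 to Con3, and do not say whether sh1 to sh3 were different hairpins, clones or cultures. The genotype label calls the knockdown cells a knockout, the protocol calls them a knockdown, and the control genotype is WT, with negative controls named in the protocol. Poly(A) RNA was fragmented and part of it was enriched with an m6A antibody (IP libraries), while the rest gave input libraries, 3 of each kind per group and 12 in all.

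Expression was given as FPKM in the 6 input libraries, and only for the 6396 genes that had a differential m6A peak, 24 of them respiratory chain subunits. FTO itself stood at 0.786, 0.830 and 0.765 FPKM in knockdown cells, against 5.48, 5.68 and 5.52 FPKM in control cells. Over all listed genes FPKM summed to between 83712 and 86902 in knockdown libraries and between 74289 and 78461 in control libraries, and the part of this gap in the results below was not tested. Log2 values of libraries correlated at 0.988 to 0.992 within a group and at 0.958 to 0.969 between groups. Depth was unknown. MUC1 was the 1 of 14 gastric and epithelial markers with FPKM, so the cell type could hardly be checked. Of 6 fibroblast markers THY1 and COL1A1 had FPKM, and none of 5 immune markers was listed. THY1 rose, at 14.4 to 15.4 FPKM in knockdown libraries and 11.8 to 12.9 FPKM in control libraries, and COL1A1 fell, at 138 to 154 FPKM in knockdown libraries and 165 to 176 FPKM in control libraries. Their part in the results was not tested. In bulk RNA, fewer cells with a transcript and less of it per cell cannot be told apart.

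Sequences at transcript starts are shown because, in the knockdown list, a larger share of peaks on these genes than of all peaks lay in the 5′ UTR, as described further on. RefSeq (GRCh38.p14) held a start region for 43 of the 55 genes, 54 starts in all. A start counts as under a peak where a peak called on that gene covered any of its first 50 transcribed bases. This held for 9 starts of 8 genes. DRACH (A, G or T, then A or G, then AC, then A, C or T, on the transcribed strand) occurred in the first 50 transcribed bases at 4 of these 9 starts. It occurred at 28 of the 45 starts without a peak and at 49.6% of 35116 RefSeq starts, so a peak at the start did not go with more frequent motifs. NDUFS6 and ATP5PF each held 2 motifs in these bases. The first motif of each of the 4 starts, which lay under a peak, is printed 5′ to 3′ with the motif in capitals.
NDUFS6, chr5:1801421-1801445, plus strand: gcggcggcgaTGACCttctgccggc
UQCRH, chr1:46303700-46303724, plus strand: tcttgatcctGAACTgggttaggtg
ATP5PF, chr21:25735018-25735042, minus strand: tgtctcacctAGACCcgtccggtcg
ATP5IF1, chr1:28236127-28236151, plus strand: gcgtaacgagAGACTgcttgctgcg

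The peaks over the motifs of NDUFS6, UQCRH and ATP5PF were in the knockdown list and the peak over that of ATP5IF1 was in the control list. ATP5MC2, which encodes a form of the c subunit of the ATP synthase rotor, had the highest peak of all 55 genes at its start, and held no DRACH there. Its first transcribed bases follow with the first base in capitals.
ATP5MC2, chr12, minus strand: Gcagtccacgttacggatcggcttactccg

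The first base was A, the base that can carry m6Am, at 5 of the 9 starts under a peak. It was A at 17 of all 54 starts of these genes and at 44.4% of RefSeq starts. A start in RefSeq need not be the start used in these cells, and a motif is only a match of letters.

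The m6A peak lists held 54 peaks named for respiratory chain subunits after FTO knockdown, of 28888 in all, and 75 in control cells, of 39492. They belonged to 38 genes in the knockdown list and 45 in the control list. Both lists shared 29 genes, 9 genes stood in the knockdown list alone, 16 in the control list alone, and ATP5F1D in neither. Each group had a single deposited list with no values per library, so these counts carry no replicate error and no test. The enrichment of IP over input and its p are the authors' values throughout.

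Not every peak named for a subunit lay on it. The lists give a gene name and, separately, the gene model on which the peak was called, and the names differed in 10 of 54 knockdown peaks (18.5%) and 19 of 75 control peaks (25.3%), against 21.7% and 22.6% of all peaks. Of 29 such subunit peaks 2 lay within the named gene by RefSeq, whereas 85 of 100 peaks called on the subunit's own model did. The highest peaks of several complexes were of this kind. UQCRB, a small subunit of complex III, was named for a peak of 32.3-fold enrichment in knockdown cells and 38.2-fold in control cells that was called on MTERF3. SDHD, a membrane anchor of complex II, was named for a peak on NKAPD1 of 10.9-fold and 13.6-fold. NDUFS8, an iron-sulphur subunit of complex I, was named for a peak on ALDH3B1 of 18.5-fold in knockdown cells and 7.86-fold in control cells. COX6A2, the muscle form of a complex IV subunit, was named for a control peak of 26.0-fold called on ZNF843. These values describe neighbouring genes.

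Own peaks here are peaks called on the subunit's own gene model that also bear its name. Such peaks were held by 33 subunits in knockdown cells and 38 in control cells, 24 of them in both lists. Peaks on these models under another name are described at the end and are not counted, although they would add subunits such as NDUFS1 to both lists. In complex I the highest own peak after knockdown was that of NDUFS7, which carries the last iron-sulphur cluster before coenzyme Q, at 17.4-fold against 11.3-fold in control cells (chr19:1392236-1393164, exon). In control cells the highest was that of the accessory subunit NDUFA7 at 23.7-fold, with no peak on NDUFA7 after knockdown. SDHC, the other membrane anchor of complex II, had a 3′ UTR peak of 3.23-fold in knockdown cells and 3.79-fold in control cells. The small complex III subunits UQCR10 and UQCR11 had 3′ UTR peaks of 8.90-fold and 8.56-fold after knockdown. The control list held UQCR11 at 8.58-fold, and under the name of the neighbour AC004882 a peak on UQCR10 of 8.86-fold. COX6B2, the testis form of a complex IV subunit, had a peak of 8.38-fold in knockdown cells overlapping one of 8.40-fold in control cells.

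ATP synthase held the widest range. The ATP5MC2 start was at 45.3-fold in knockdown cells (chr12:53676276-53676514, log10 p of -13.3). That peak overlapped a control peak of 9.16-fold whose log10 p of -2.16 was weak. The control peak (chr12:53676365-53676484) lay upstream of the RefSeq start and covered none of its first 50 bases. ATP5PD, subunit d of the peripheral stalk, stood at 2.72-fold in knockdown cells and 11.0-fold in control cells in the same exon (control peak at chr17:75040324-75041072). All 24 subunits with an own peak in both lists had peaks that overlapped between them. Over these overlapping peaks the highest was higher in knockdown cells for 14 and in control cells for 10, with a median ratio of 1.09. The ratio stayed within 1.5-fold for 17 subunits. It was at least 1.5-fold up for 4 (ATP5MC2, NDUFA11, NDUFA8 and NDUFS7) and as far down for 3 (ATP5PD, NDUFC1 and UQCRHL, the last at 2.10-fold in knockdown cells over a weak control peak of 6.11-fold with a log10 p of -3.95). These subunits were singled out after their values were seen.

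**Figure D1:**
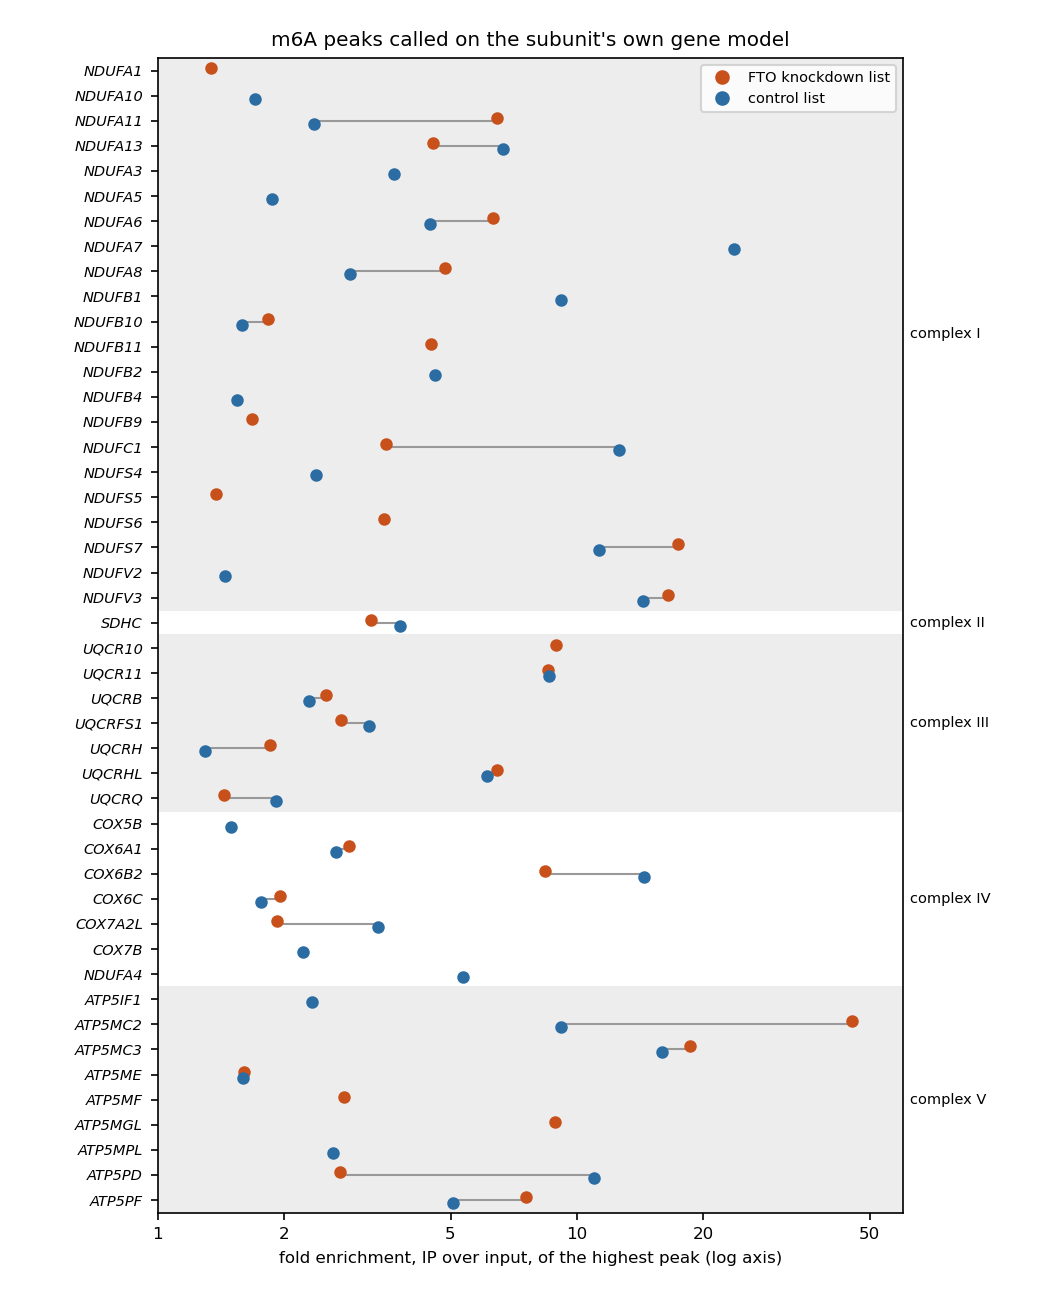
Fold enrichment (IP over input, log axis) of the highest own peak of each subunit, in the knockdown list (orange) and the control list (blue). Own peaks are called on the subunit's own gene model and bear its name. A grey line joins a gene found in both, and a lone point is a gene with an own peak in that list alone. Peaks on these models under another name are not drawn, as for UQCR10 and NDUFV2, which appear as lone points. ATP5MC2 (45.3 against 9.16), ATP5PD (2.72 against 11.0) and NDUFC1 (3.50 against 12.6) have the longest lines, and most other joined points lie close together.

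Subunit peaks had lower enrichment than peaks in general. The median enrichment of peaks named for subunits was 4.15-fold in knockdown cells and 3.34-fold in control cells, against 7.05-fold and 6.11-fold for all peaks. These medians include the peaks called on neighbouring genes. On the subunits' own models they were 3.35-fold and 3.24-fold, against 6.95-fold and 6.07-fold for all peaks on own models. Of peaks called on the subunits' own models, 15 of 44 (34.1%) in the knockdown list were in the 5′ UTR, where all peaks on own models gave 16.2%. NDUFA13 and NDUFC1 entered the 15 with 2 peaks each. Those of NDUFA13, ATP5MC3 and UQCRHL lay outside the gene by RefSeq. The UQCRHL and ATP5MGL peaks were weak (log10 p of -1.4 and -2.06). Such peaks were not removed from either share. In the control list the share was 10 of 56 (17.9%), near the 14.9% of all peaks. Of knockdown peaks named for subunits 42 of 54 (77.8%) overlapped a control peak by at least 1 base, against 88.8% of all knockdown peaks. Of control peaks 40 of 75 (53.3%) overlapped a knockdown peak, against 57.9% of all. With one list per group these shares were not tested.

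The 9 subunits with a peak in the knockdown list alone were 6 of complex I, UQCR10, and ATP5MF and ATP5MGL of complex V. NDUFS6, a zinc-binding accessory subunit, had a peak of 3.47-fold at its start (chr5:1801407-1801496). ATP5MF, subunit f of the ATP synthase membrane part, had an exon peak of 2.79-fold (chr7:99460065-99460275). NDUFB11 of the membrane arm had a 5′ UTR peak of 4.48-fold. The remaining accessory subunits of complex I were at 1.68-fold for NDUFB9, 1.38-fold for NDUFS5 (log10 p of -2.16) and 1.34-fold for NDUFA1. The NDUFB9 peak (chr8:124580468-124580528) was called on its own model but lay outside the gene, which ends at 124549979 in RefSeq. Peaks on the NDUFB9 model that were named MTSS1 stood in both lists, at 17.1-fold in knockdown cells and 10.9-fold in control cells. ATP5MGL, a copy of the subunit g gene, was at 8.89-fold with a log10 p of -2.06. Of the 9 only the UQCR10 peak overlapped a control peak under another name, and 8 overlapped none.

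The 16 subunits with a peak in the control list alone included NDUFA7, NDUFB1, NDUFA4, NDUFS4, NDUFV2, COX5B, COX7B, ATP5IF1 and ATP5MPL, and 15 of the 16 overlapped no knockdown peak under any name. The control list was longer over all genes too.

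Differential m6A peaks, which the authors' deposited table lists at a p of up to 0.0490, numbered 27 in 24 subunits. The authors' deposited table has 9 of them higher in knockdown cells (33.3%, against 55.4% of 8687 differential peaks over all genes) and 18 lower (66.7%, against 44.6%). Their median log2 ratio of knockdown over control was -0.39 in the authors' deposited table, against 0.28 for all differential peaks. The balance turned round among ratios of at least 1 on the log2 scale, where the authors' deposited table has 6 subunit peaks higher and 3 lower (66.7% higher, near the 63.4% of all such peaks). The lower ones included overlapping ATP5PD entries of -1.55 and -1.53 in the authors' deposited table. All 5 peaks outside the named gene were lower, and the 22 inside their gene divided into 9 higher and 13 lower. These are ratios of pooled groups without values per library, and the shares were not tested against those of other genes.

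**Figure D2:**
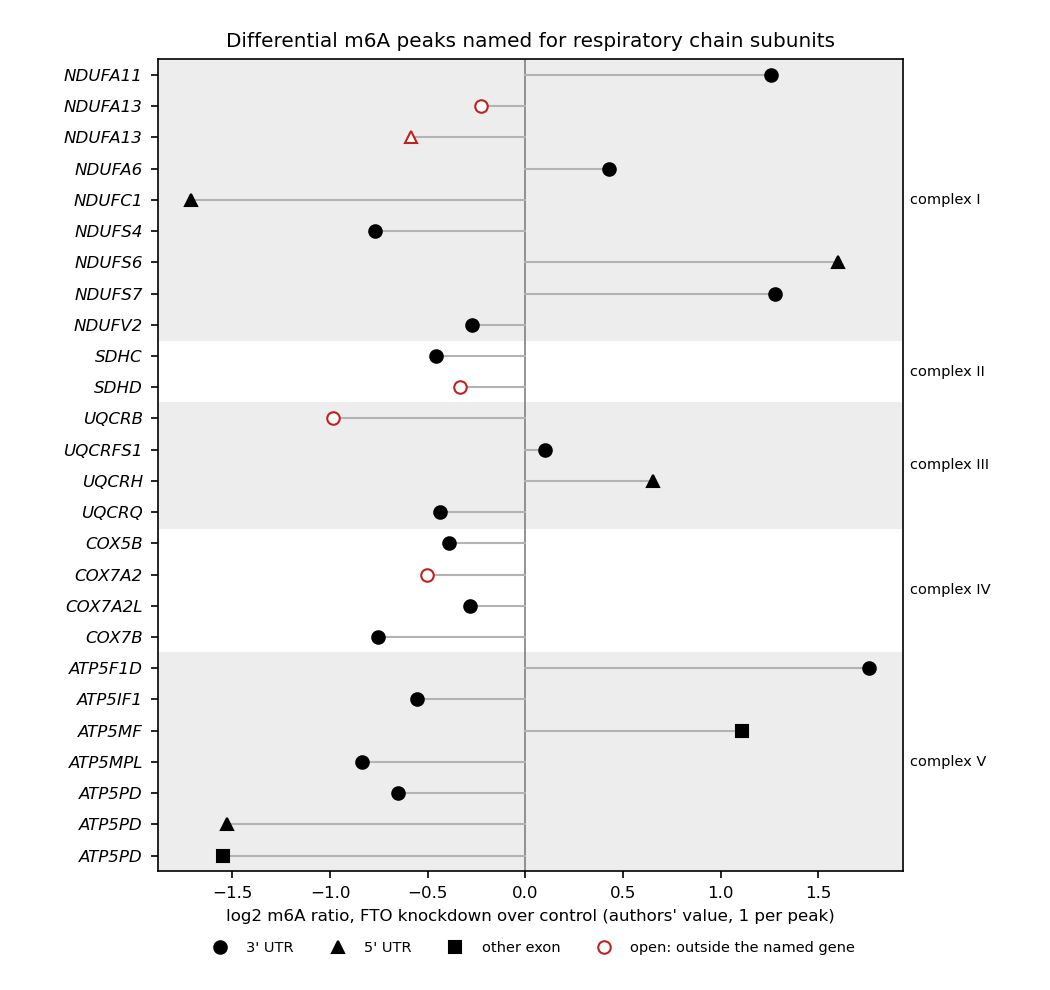
Log2 m6A ratio (FTO knockdown over control, authors' value) of 26 differential peaks named for a subunit, in rows by complex; filled black symbols lie inside the named gene, open red ones outside, and shapes give the region. Complexes II and IV have only negative values, complex I is divided 4 higher to 5 lower, and all open symbols lie left of 0.

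Among complex I peaks, 5 were higher and 5 lower in the authors' deposited table. The NDUFS6 start peak had a log2 ratio of 1.60 in the authors' deposited table (adjusted p = 5.01e-08). A 3′ UTR peak of NDUFS7 had 1.28 in the authors' deposited table (adjusted p = 1.58e-20), with peaks of 9.34-fold in knockdown cells and 3.29-fold in control cells. NDUFA11, an accessory subunit of the membrane arm, had a ratio of 1.26 there (adjusted p = 7.59e-07) with 6.47-fold in knockdown cells against 2.36-fold in control cells. NDUFA6, an accessory subunit of the matrix arm, had 0.43 in the authors' deposited table, with 6.32-fold against 4.46-fold.

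The lowest ratio of all was that of NDUFC1, a small membrane arm subunit, at -1.71 in the authors' deposited table (adjusted p = 3.98e-11). At its RefSeq starts chr4:139301210 and chr4:139301234, the knockdown peak of 3.50-fold covered 44 and 20 of the first 50 bases, but neither start base. The control peak of 12.6-fold covered all 50 bases at both starts. RefSeq starts at 139302477 and 139302551 lay under no peak. NDUFS4, whose loss causes a mitochondrial encephalopathy, had -0.77 in the authors' deposited table. NDUFV2, which carries an iron-sulphur cluster near the NADH site, had -0.27 there. NDUFA13 had 2 lower peaks in the authors' deposited table, -0.23 on GATAD2A at 7294 bp from NDUFA13 and -0.58 on its own model, 43 bp before the RefSeq start.

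Complexes II, III and IV showed smaller ratios. SDHC had a 3′ UTR ratio of -0.46 in the authors' deposited table, and the peak named for SDHD, at -0.34, lay 3341 bp outside that gene. UQCRH, the hinge protein of complex III, had 0.65 in the authors' deposited table for an entry that runs from its start into a later exon. The knockdown peak of 1.86-fold covered the start, and the control peak of 1.3-fold (chr1:46309186-46309246) lay in the later exon only. The Rieske protein gene UQCRFS1 had 0.10 there, over a knockdown peak of 2.74-fold and control peaks of 3.19-fold and 1.48-fold. UQCRQ had -0.44 in the authors' deposited table, and the UQCRB entry of -0.98 lay 3853 bp outside the gene. The 4 entries of complex IV were all lower in the authors' deposited table: COX7B at -0.76, COX5B at -0.39, COX7A2L at -0.28 and COX7A2 at -0.50, the last being 3403 bp outside its gene. UQCRH has a near-identical copy, UQCRHL, and reads of the pair may have been divided between them.

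ATP synthase had 2 higher and 5 lower entries in the authors' deposited table. ATP5F1D, subunit delta of the central stalk, had the highest ratio of all, 1.76 with a log10 adjusted p of -434 in the authors' deposited table (chr19:1244067-1244615, 3′ UTR), yet neither list held a peak there under any gene name. ATP5MF had 1.11 in the authors' deposited table (adjusted p = 6.31e-12). ATP5PD had 3 lower entries there, -1.55 and -1.53 at overlapping places and -0.65 in its 3′ UTR. The -1.53 entry has the span of a control peak of 11.6-fold called on the neighbour KCTD2 (chr17:75040318-75047308). The -1.55 entry overlaps that KCTD2 peak as well as the control peak on the ATP5PD model. ATP5MPL, a small membrane proteolipid also known as ATP5MJ, had -0.84 in the authors' deposited table. ATP5IF1, the natural inhibitor of ATP synthase, had -0.55 there. By place, 19 of the 27 entries were in the 3′ UTR (5 higher, 14 lower), 6 in the 5′ UTR (3 and 3) and 2 in other exons (1 and 1).

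RNA levels of the same subunits moved little. Of 24 with FPKM 23 reached the mean of 1 FPKM needed for the test, 4 rose (17.4% of those tested, against 24.5% of 4515 genes) and 5 fell (21.7%, against 37.9%) at a limma adjusted p under 0.05. Log2 changes of FPKM + 1 ran from -0.31 to 0.35 with a median of -0.05, against -0.07 for all genes tested. The median absolute change was 0.10 for subunits and 0.22 for all genes. Knockdown and control values were fully separate in 11 of 23 subunits, against 67.8% of all genes. Since only genes that had a differential peak came with FPKM, RNA of the other 31 subunits was not analysed here.

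**Figure D3:**
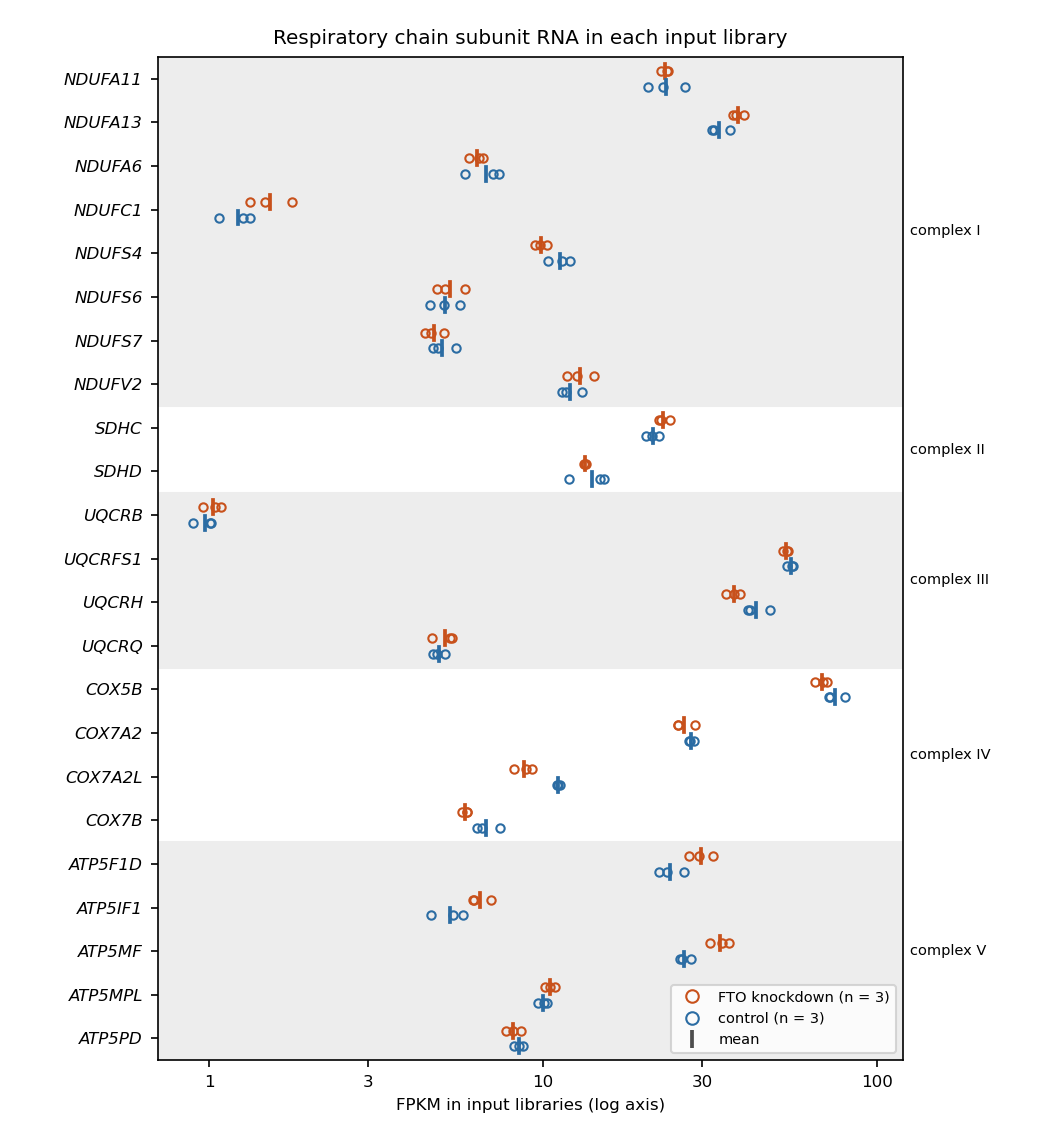
FPKM (log axis) of 23 subunits with expression values in each of 3 knockdown (orange, upper) and 3 control (blue, lower) input libraries, with a bar at each mean, in rows by complex. ATP5MF, ATP5F1D and ATP5IF1 lie to the right of their controls and COX7A2L to the left without overlap, while most subunits of complexes I to III overlap.

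ATP synthase subunits gave 3 of the 4 rises and no fall among 5 tested. ATP5MF stood at 31.7, 34.3 and 36.1 FPKM in knockdown libraries, against 26.1, 25.8 and 27.8 FPKM in control libraries. All knockdown values lay above all controls, and ATP5MF rose by 0.35 (SE 0.0551, limma adjusted p = 0.00103). A read-through transcript, ATP5MF-PTCD1, shares its start, so its reads may count for both. ATP5F1D had 32.4, 27.4 and 29.3 FPKM in knockdown libraries, against 22.3, 23.6 and 26.5 FPKM in control libraries. The groups did not overlap, and it rose by 0.29 (SE 0.0773, limma adjusted p = 0.0117). The inhibitor gene ATP5IF1 had 6.21, 6.18 and 7.01 FPKM in knockdown libraries, against 5.37, 4.63 and 5.75 FPKM in control libraries. It rose by 0.26 (SE 0.0763, limma adjusted p = 0.0186), and the call was lost without control library 2 (limma adjusted p = 0.0525) or knockdown library 3 (0.0681). ATP5MPL had 10.2, 10.5 and 10.9 FPKM in knockdown libraries, against 9.67, 10.05 and 10.3 FPKM in control libraries. ATP5PD had 8.11, 8.58 and 7.78 FPKM in knockdown libraries, against 8.46, 8.22 and 8.70 FPKM in control libraries. The groups overlapped for both, and neither passed.

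Complex IV gave 2 falls (50%, against 37.9% of all genes) and no rise (0%, against 24.5%) among 4 tested. COX7A2L, which helps to join complexes III and IV into supercomplexes, had 8.19, 8.89 and 9.30 FPKM in knockdown libraries, against 11.0, 11.1 and 11.3 FPKM in control libraries. All knockdown values lay below all controls, and COX7A2L fell by 0.31 (SE 0.0501, limma adjusted p = 0.00114). COX7B, a small structural subunit, had 5.93, 5.72 and 5.93 FPKM in knockdown libraries, against 6.57, 7.42 and 6.33 FPKM in control libraries. The groups did not overlap and it fell by 0.18 (limma adjusted p = 0.0283). That call was lost without control library 2 or knockdown library 1, 2 or 3 (limma adjusted p of 0.0819, 0.0603, 0.0820 and 0.0629). COX5B, a subunit on the matrix side, had 65.3, 69.3 and 71.0 FPKM in knockdown libraries, against 72.5, 72.1 and 80.6 FPKM in control libraries. The groups did not overlap, but it missed the threshold with a log2 change of -0.13 (limma adjusted p = 0.0791), which it passed after quantile normalization (0.0141). COX7A2 had 25.4, 28.6 and 25.4 FPKM in knockdown libraries, against 28.4, 27.4 and 27.7 FPKM in control libraries, overlapped, and passed only without knockdown library 2 (limma adjusted p = 0.0402).

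Complex I gave 1 rise (11.1%, against 24.5% of all genes) and 2 falls (22.2%, against 37.9%) among 9 tested. NDUFA13, an accessory subunit also known as GRIM-19, had 37.0, 37.9 and 40.1 FPKM in knockdown libraries, against 32.5, 32.1 and 36.4 FPKM in control libraries. It rose by 0.18 without overlap (SE 0.0569, limma adjusted p = 0.0223), and lost the call without control library 1, control library 2 or knockdown library 3 (limma adjusted p of 0.0757, 0.0796 and 0.0845). NDUFS4 had 10.3, 9.82 and 9.46 FPKM in knockdown libraries, against 12.04, 11.4 and 10.4 FPKM in control libraries. It fell by 0.18 (SE 0.0587, limma adjusted p = 0.0299) with adjacent but separate groups, and lost the call without control library 1, control library 2 or knockdown library 2 or 3 (limma adjusted p of 0.10, 0.0823, 0.0721 and 0.103).

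The other 6 subunits of complex I did not pass. NDUFC1 was the lowest, with 1.33, 1.46 and 1.77 FPKM in knockdown libraries, against 1.33, 1.07 and 1.26 FPKM in control libraries. Its groups touched without overlap, and its log2 change was 0.18 (limma adjusted p = 0.0818). NDUFA6 had 5.99, 6.6 and 6.44 FPKM in knockdown libraries, against 7.37, 7.09 and 5.84 FPKM in control libraries. Its control library 3 lay below every knockdown library, and without it limma called a log2 change of -0.16 (adjusted p = 0.0215). NDUFA11 had 23.7, 22.5 and 23.5 FPKM in knockdown libraries, against 20.7, 22.9 and 26.7 FPKM in control libraries. The controls of NDUFA11 spread on either side of the knockdown values. NDUFS6 had 4.81, 5.11 and 5.85 FPKM in knockdown libraries, against 5.64, 4.59 and 5.06 FPKM in control libraries. NDUFS7 had 5.05, 4.62 and 4.44 FPKM in knockdown libraries, against 4.68, 4.85 and 5.47 FPKM in control libraries. NDUFV2 had 11.8, 14.2 and 12.7 FPKM in knockdown libraries, against 13.1, 11.4 and 11.7 FPKM in control libraries. The groups overlapped in each of these 3. NDUFS7 overlaps AC005329 and NDUFV2 has an antisense partner, and whether the counting used strand is not given in the sources used here.

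Complexes II and III gave 1 call, a fall among 3 tested genes of complex III (33.3%, against 37.9% of all genes). UQCRH had 35.4, 37.4 and 39.0 FPKM in knockdown libraries, against 47.8, 41.8 and 41.1 FPKM in control libraries. It fell by 0.22 without overlap (SE 0.0647, limma adjusted p = 0.0191), and lost the call without knockdown library 1 (limma adjusted p = 0.0686). UQCRFS1 had 52.3, 53.9 and 54.3 FPKM in knockdown libraries, against 54.0, 56.4 and 55.9 FPKM in control libraries, with a slight overlap. UQCRQ had 4.65, 5.25 and 5.36 FPKM in knockdown libraries, against 5.10, 4.70 and 4.83 FPKM in control libraries, and overlapped. UQCRB averaged under 1 FPKM and was not tested, with 0.960, 1.08 and 1.04 FPKM in knockdown libraries, against 1.01, 1.01 and 0.891 FPKM in control libraries. SDHC had 22.3, 22.6 and 24.0 FPKM in knockdown libraries, against 21.3, 20.4 and 22.4 FPKM in control libraries. SDHD had 13.3, 13.4 and 13.3 FPKM in knockdown libraries, against 15.2, 14.8 and 11.9 FPKM in control libraries. The groups of SDHC and SDHD overlapped and neither passed, although without control library 3 SDHC was called higher and SDHD lower (limma adjusted p of 0.0310 and 0.00571).

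**Figure D4:**
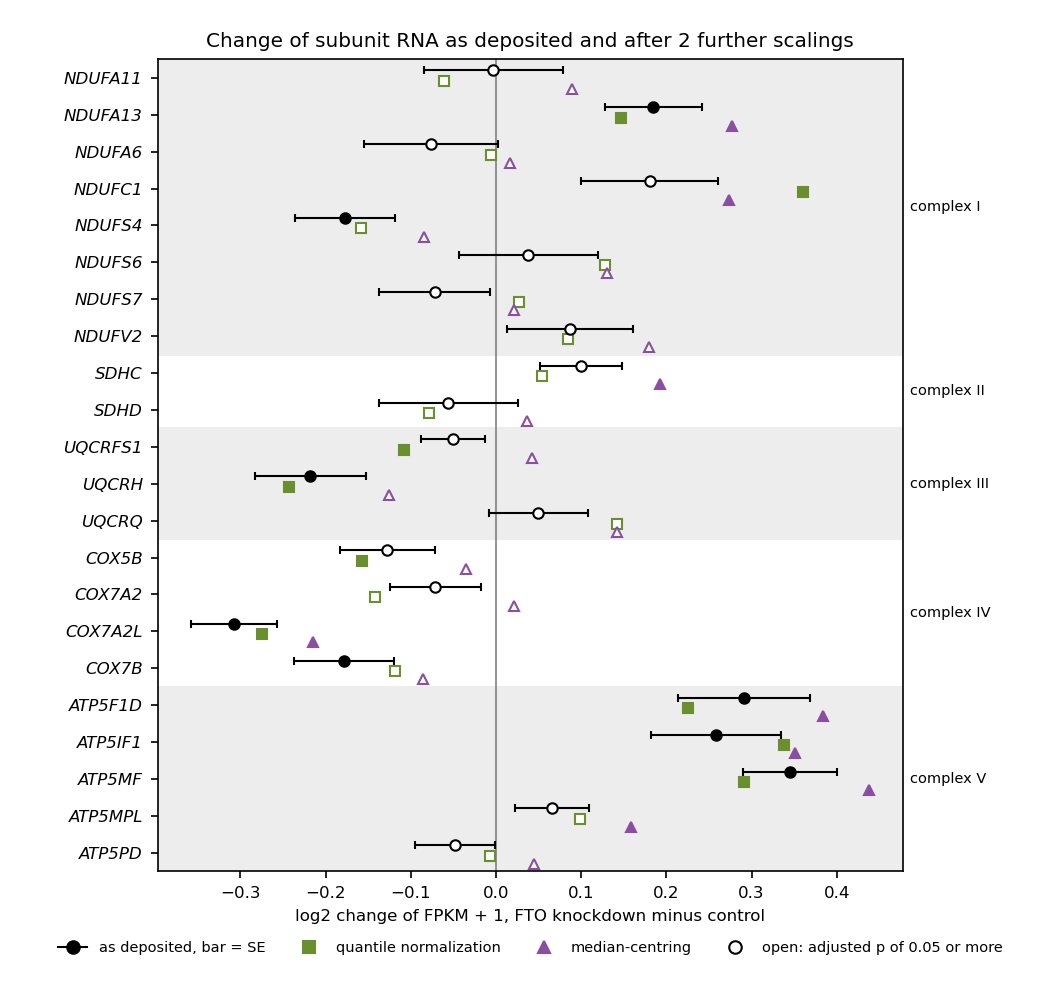
Log2 change of FPKM + 1 (FTO knockdown minus control) of 22 tested subunits as deposited (black, bar for the SE), after quantile normalization (green squares) and after median-centring (purple triangles); filled symbols have a limma adjusted p under 0.05. ATP5MF, ATP5F1D and COX7A2L are filled under all 3 scalings, and median-centring moves every subunit to the right by 0.09.

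The scaling between libraries decided several of these calls. Median-centring added 0.09 to every log2 change. As deposited 4 subunits rose and 5 fell, after quantile normalization 5 and 5, and after median-centring 7 rose and 1 fell. Over all genes the share of rises among calls was 39.3% as deposited, 52.5% after quantile normalization and 55.4% after median-centring. NDUFS4 and COX7B lost their calls under both scalings (limma adjusted p of 0.0561 and 0.112 after quantile normalization, 0.225 and 0.229 after median-centring). UQCRH lost its call after median-centring (limma adjusted p = 0.114). After quantile normalization COX5B and UQCRFS1 were called lower (limma adjusted p of 0.0141 and 0.0312), so the 5 falls there were not the same genes. NDUFC1 was called higher under both (limma adjusted p of 0.00590 and 0.0177). Of the 9 called subunits, 3 (ATP5MF, ATP5F1D and COX7A2L) were called under every alternative tried, left-out libraries included. In the authors' deposited table a q under 0.05 was given for 5 subunits, namely ATP5MF, ATP5F1D, ATP5IF1, NDUFA13 and SDHC, all higher in knockdown cells.

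Changes of m6A and of RNA did not run in 1 direction. Among 20 subunits tested for RNA with a differential peak inside their gene, the authors' deposited table gave higher m6A for 9, of which 2 rose, 2 fell and 5 did not pass, with a median log2 RNA change of -0.05. It gave lower m6A for 11, of which 1 rose, 3 fell and 7 did not pass, with a median of 0.05. ATP5F1D and ATP5MF had more m6A and more RNA after knockdown, UQCRH more m6A and less RNA, COX7A2L, COX7B and NDUFS4 less of each, and ATP5IF1 less m6A and more RNA. The input libraries are also the denominator of the enrichment, so these measures are not independent.

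Genes that work with the nuclear subunits were taken from lists of the pathway. Of the 13 subunits encoded in mitochondrial DNA, which join the nuclear ones in complexes I, III, IV and V, 8 were listed. Of these 6 rose (75%, against 24.5% of all genes) and none fell (0%, against 37.9%). Their median log2 change was 0.41, against -0.05 for the nuclear subunits and -0.07 for all genes. MT-CYB of complex III had 103, 85.6 and 96.6 FPKM in knockdown libraries, against 44.5, 44.0 and 53.1 FPKM in control libraries, and had a log2 rise of 0.995 (limma adjusted p = 6.57e-05). MT-ND2 and MT-CO2 passed with overlapping groups, and MT-ND2 lost its call without the filter on low values (limma adjusted p = 0.0980). The medians of mitochondrial and nuclear subunits were not tested against each other. Of 52 assembly factors 15 were tested, 5 rose (33.3%, against 24.5% of all genes) and 6 fell (40.0%, against 37.9%). COA3, which helps to start complex IV, had 10.2, 8.94 and 10.8 FPKM in knockdown libraries, against 6.98, 7.00 and 7.83 FPKM in control libraries, and rose by 0.41 (limma adjusted p = 0.00177). SDHAF3, an assembly factor of complex II, had 6.09, 6.28 and 5.93 FPKM in knockdown libraries, against 8.63, 9.62 and 7.91 FPKM in control libraries. It fell by 0.45 (limma adjusted p = 0.000667). Both were singled out after their values were seen.

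Of 20 genes for electron carriers and coenzyme Q 7 were tested, 3 fell (42.9%, against 37.9% of all genes) and none rose. CYCS, cytochrome c itself, had 17.3, 17.9 and 18.6 FPKM in knockdown libraries, against 26.6, 27.3 and 23.9 FPKM in control libraries, and fell by 0.51 (limma adjusted p = 0.000163). COQ4 and COQ8B were the others. Of 19 genes of the citric acid cycle and pyruvate metabolism 2 were tested. IDH2, which makes NADPH in mitochondria, fell to 24.4, 24.0 and 25.2 FPKM in knockdown libraries, against 40.8, 40.5 and 43.3 FPKM in control libraries (limma log2 change -0.74, adjusted p = 1.28e-05), and PC rose. Of 18 regulators of mitochondrial gene expression 6 were tested. PPRC1, a coactivator of nuclear genes for mitochondrial proteins, rose to 65.1, 60.3 and 63.5 FPKM in knockdown libraries, against 41.6, 42.6 and 42.1 FPKM in control libraries (limma log2 change 0.57, adjusted p = 3.02e-05). ESRRA fell, and the other 4 did not pass. The rise was thus 1 of 6 (16.7%, against 24.5% of all genes) and the fall 1 of 6 (16.7%, against 37.9%).

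**Figure D5:**
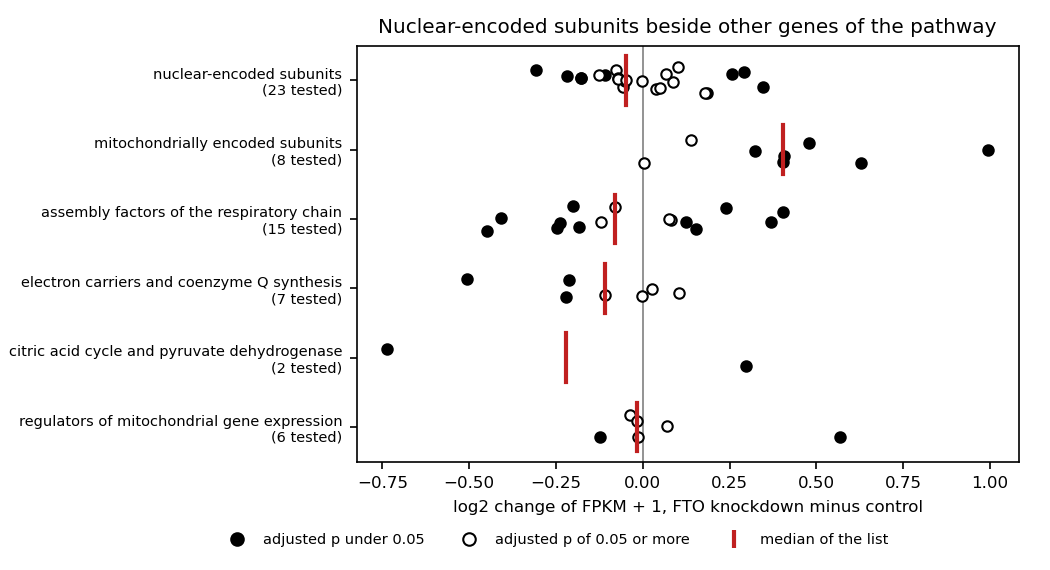
Log2 change of FPKM + 1 (FTO knockdown minus control) of the tested nuclear-encoded subunits and of 5 related gene lists; filled points have a limma adjusted p under 0.05 and red bars are medians. The nuclear subunits lie within -0.31 to 0.35, the mitochondrially encoded ones mostly to the right of 0 with a median of 0.41.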

How the data were processed

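HGC27 cells with FTO knockdown and control cells were profiled by m6A immunoprecipitation and sequencing, with 3 IP and 3 input libraries each; groups follow the sample titles. Expression was deposited as FPKM per input library. How isoforms were combined is not given, so levels were compared within genes only. The authors' deposited comparisons hold log2 ratios of m6A and of expression, with a p-value or a q-value, and log10 adjusted p as a score. Both kinds of log2 ratio ran control over knockdown and were turned round. For expression this followed from the FPKM. For m6A it followed from a rank correlation of 0.858 with the enrichment ratio of both lists over 4066 peaks. Per the file headers, peak lists give a fold enrichment (the ratio of IP over input) and scores (log10 p). Lists hold peaks up to a p of 0.0501, 1 list per group, so libraries were pooled or merged before deposition. Of 8970 differential entries, 283 without a gene were not used, nor were 3 duplicate knockdown peaks.

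Per the submitters' processing notes, the tools were StringTie 1.3.0, HISAT2 2.0 and Bowtie 0.12.2, with no role given to any. These notes name a mouse build, but positions are human and match GRCh38, counted here from 1. The peak caller is not given in the sources used here.

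Genes averaging 1 FPKM or more were tested as log2(FPKM + 1), which understates changes of low genes, with limma 3.58.1 (trend, two-sided, Benjamini-Hochberg over all 4515 genes, threshold 0.05) in R 4.3.3. The code was tested on simulated data. FPKM showed no steps of whole reads, so no count test was run and depth is unknown. Whether libraries are separate cultures is not stated, so the p-values reflect only how far these samples, possibly technical repeats, scatter. Peaks were overlapped on exonic blocks with bedtools 2.31.1. Members, lists and alternatives (another pseudocount, filter, scaling, replicate block, left-out libraries, stricter peaks) were chosen with earlier results of these data known. Counts cover every member, but 1 is not reported by name here or drawn in the plots by gene. Named were every other member with FPKM, every differential peak, the highest peak of each complex in each list (p of at most 1e-05) and members of the knockdown list alone. Related genes came from lists of the pathway.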

Additional observations from a re-analysis of the deposited data

How the results depend on the processing

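The count of rising subunits was 4 with a pseudocount of 0.1, without a filter, at a mean of at least 5 FPKM and with a replicate block, 5 after quantile normalization, and 7 after median-centring. The count of falling ones was 5 in all of these except median-centring, which gave 1. Leaving out each library in turn gave 2 to 5 rises and 2 to 7 falls. Calls over all genes went to 1603 at a mean of at least 5 FPKM, where fewer genes were tested, to 2747 with the replicate block, and to between 2408 and 3018 with a library left out. The labels do not say whether numbers pair the samples. Deviations of same-numbered libraries correlated at -0.08, 0.03 and 0.02, and those of differently numbered ones at -0.18 to 0.19. With 3 libraries per group these values cannot decide whether the samples were paired. With the block COX5B gained a call (limma adjusted p = 0.0450).

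Median-centring adds the same 0.09 to every log2 change, and so turned that of ATP5PD to 0.0446, COX7A2 to 0.0218, NDUFA11 to 0.0896, NDUFA6 to 0.0171, NDUFS7 to 0.0207, SDHD to 0.0369 and UQCRFS1 to 0.0423, and quantile normalization turned NDUFS7 to 0.0272. None of these was called in either direction as deposited. With a library left out NDUFA11 ran from -0.0854 to 0.0903, NDUFS6 from -0.0293 to 0.101 and SDHD from -0.159 to 0.00489, each crossing 0. The causes were not tested.

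At an absolute log2 ratio of at least 1, higher differential peaks of subunits numbered 6 and lower ones 3, beside 1457 and 842 of all genes. Subunits with a peak of at least 4-fold numbered 22 in the knockdown list and 24 in the control list. The share of knockdown peaks overlapping a control peak was 48.1% at 50% reciprocal overlap and 64.3% among peaks of at least 4-fold, and the share of control peaks was 34.7% at 50% reciprocal overlap. Counting only peaks inside the member gene or on its own model was added after the data were seen and moved no count by over 1.5 times. Depth is unknown and peak lists have no replicates, so weak peaks and small log2 changes cannot be told from sampling noise here.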

Other observations

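Some peaks were called on a respiratory chain gene model but named for another gene, 11 in the knockdown list and 14 in the control list, and are left out of the counts of peaks by gene in the report. On NDUFS7 a peak named AC005329 stood at 12.1-fold in knockdown cells and 4.56-fold in control cells, beside the NDUFS7 peaks of 17.4-fold and 9.34-fold after knockdown. On NDUFS1, the largest core subunit of complex I, a peak named GCSHP3 stood at 6.73-fold in knockdown cells and 4.04-fold in control cells. On UQCR11 a peak named MBD3 stood at 6.10-fold in knockdown cells and 4.84-fold in control cells. On NDUFV2 a peak named NDUFV2-AS1 stood at 1.64-fold in knockdown cells and 2.06-fold in control cells, so the NDUFV2 model had a peak in both lists. The control peak named NDUFV2, of 1.45-fold, was at another place and overlapped no knockdown peak. The models of NDUFA10, NDUFB9 and ATP5MF-PTCD1 likewise had peaks of other names in both lists. These peaks were chosen after their values were seen, and the lists hold no replicates with which to test them.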
